A study of Homo sapiens with 56 samples.

Results

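This account follows the transcripts of 10 transcription factors that set or mark T cell lineage (TCF7, LEF1, SATB1, GATA3, TBX21, MAF, BCL6, RUNX3, ZEB1 and ETS1) in 4 human lines of cutaneous T-cell lymphoma, HuT102, MJ, MY-LA and HuT78. The genes were taken from a list by name, not by a cut on measured values. That list was chosen with earlier results of these data known. A probe set was used when the array annotation gives it a member as its only symbol. That left 9 of the 10 genes with 29 probe sets, out of 19775 genes and 41091 single-symbol probe sets. TCF7 has no such probe set and is not analysed here. Cells of each line were grown in wells with cobomarsen (MRG-106), an oligonucleotide that inhibits the microRNA miR-155, or were left untreated. Sampling was at day 4 and day 8, meant for direct and for downstream targets in turn, except that HuT78 was sampled at day 8 only. With 4 arrays of total RNA for every combination of line, time and treatment, there were 14 groups. The dose is not given in the labels, and the controls received no oligonucleotide, so inhibiting miR-155 and adding an oligonucleotide as such cannot be told apart. Whether arrays of a group stem from separate cultures is not stated, and a p-value here covers no more than the spread among these samples.

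HuT102, MJ and MY-LA were derived from mycosis fungoides and HuT78 from Sézary syndrome, and the virus HTLV-1 is carried by HuT102 and MJ. In T cells, TCF7 and LEF1 are the DNA-binding partners of beta-catenin and are high in naive and memory cells. GATA3 and MAF direct the Th2 program, TBX21 (T-bet) directs Th1 cells and the interferon gamma gene, and BCL6 is the repressor that defines follicular helper cells. RUNX3 acts in CD8 and cytotoxic cells and pairs with T-bet, SATB1 organises chromatin in thymocytes and mature T cells, ETS1 is needed for T cell survival, and ZEB1 represses IL2 and epithelial genes. MicroRNAs such as miR-155 pair through their seed with messenger RNAs and lower their level. MAF, ETS1 and SATB1 are among the genes that others have described as targets of miR-155.

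The microRNA that cobomarsen inhibits is shown first, because its seed is the part that finds a target. It is read from chr21:25573983-25574006 on the plus strand of GRCh38.p14 (RefSeq). The capitals mark the seed, bases 2 to 8.
hsa-miR-155-5p: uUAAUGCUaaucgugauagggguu
The site that pairs with all 7 bases of this seed reads AGCAUUA in a messenger RNA. Such sites were not searched for here.

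The transcript that miR-155 is cut from was near background in HuT78, with a mean signal of 29.9 ± 7.72 untreated and 36.2 ± 20.1 with cobomarsen (SD, n = 4). In the 12 groups of the other lines its mean lay between 11499 and 29906. Signals are MAS5 values, the linear probe set intensity that the authors deposited, and the median over all values of the table was 74.0. The median signal of an array ranged from 56.4 to 91.7. Of 11 T cell markers with a probe set, 10 reached the median of all values in HuT102 and MJ (CD7 did not), 10 in HuT78 (CD2 did not) and 7 in MY-LA, where CD4, CD5, CD7 and LCK lay under it. Of 5 epithelial markers 3 reached it in HuT78, with a summed signal of 8670 to 11187 per array, against 63.0 to 2333 in the other lines. Most of the HuT78 sum was EPCAM, with a mean signal of 8908. Of 6 fibroblast and endothelial markers 4 reached it in MJ and 3 in MY-LA, with a summed signal of 2355 to 5666, against 214 to 484 in HuT102 and HuT78. COL3A1 made up most of that sum, at 2311 in MJ and 3551 in MY-LA. Of 5 B cell markers 4 reached the median in HuT78, 3 in HuT102 and MJ and 2 in MY-LA, with PAX5 at 1402 in HuT102. Of 4 NK cell markers 3 reached it in MJ, 2 in MY-LA and 1 in HuT102 and HuT78. Of 6 myeloid markers 2 reached it in HuT102, MJ and MY-LA and 0 in HuT78, with MPO at 546 in MJ. The part of these markers in the results was not tested. In HuT78 the upper quartile of the signal was 380 to 385 on cobomarsen arrays 2, 3 and 4, but 431 on cobomarsen array 1 and 422 to 443 on the untreated arrays.

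With cobomarsen, GATA3 rose in HuT102 and MJ at both days and in MY-LA at day 4. ETS1 rose in HuT102 at day 8 and in MJ and MY-LA at both days. LEF1 rose and TBX21 and BCL6 fell in MJ, and BCL6 also fell in MY-LA at day 8. MAF rose in HuT102. A gene is said to rise or fall where its change on the log2(signal + 16) scale had an adjusted p under 0.05, by limma with Benjamini-Hochberg adjustment over all genes tested. Genes whose mean log2(signal + 16) over the arrays compared fell short of that of the table's median were left untested. For a log2 change, ± gives the standard error.

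Counted over the members, 2 of 9 tested rose and none fell in HuT102 at day 4, where 23.0% of all tested genes were called. At day 8 in HuT102 4 of 8 rose and none fell, against 40.1% of all genes. In MJ 4 rose and 2 fell of 8 at day 4 (27.2% of all genes called), and 3 rose and 3 fell of 9 at day 8 (33.6%). In MY-LA 4 of 8 rose and none fell at day 4 (26.3%), and 3 rose and 1 fell of 8 at day 8 (41.7%). In HuT78 none rose and 3 of 6 fell, against 22.0% of all genes. The median log2 change of the tested members was 0.22, 0.20, 0.23, 0.19, 0.28 and 0.39 in these 6 groups of HuT102, MJ and MY-LA in the same order, and -0.27 in HuT78. Over all tested genes the median lay between -0.05 and 0.02.

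The 4 arrays with cobomarsen lay wholly above or below the 4 untreated ones for 4 of 9 members in HuT102 at day 4 and 4 of 8 at day 8, where this held for 27.0% and 39.5% of all tested genes. It held for 6 of 8 members in MJ at day 4 and 8 of 9 at day 8 (31.4% and 42.0% of all genes), and for 5 of 8 in MY-LA at each day (25.4% and 40.7%). In HuT78 it held for 1 of 6, against 9.12% of all genes. By calls, the members' share lay near that of all genes in HuT102 at both days and in MY-LA at day 8, and above it in MJ, in MY-LA at day 4 and in HuT78, without a test of that gap.

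**Figure D1:**
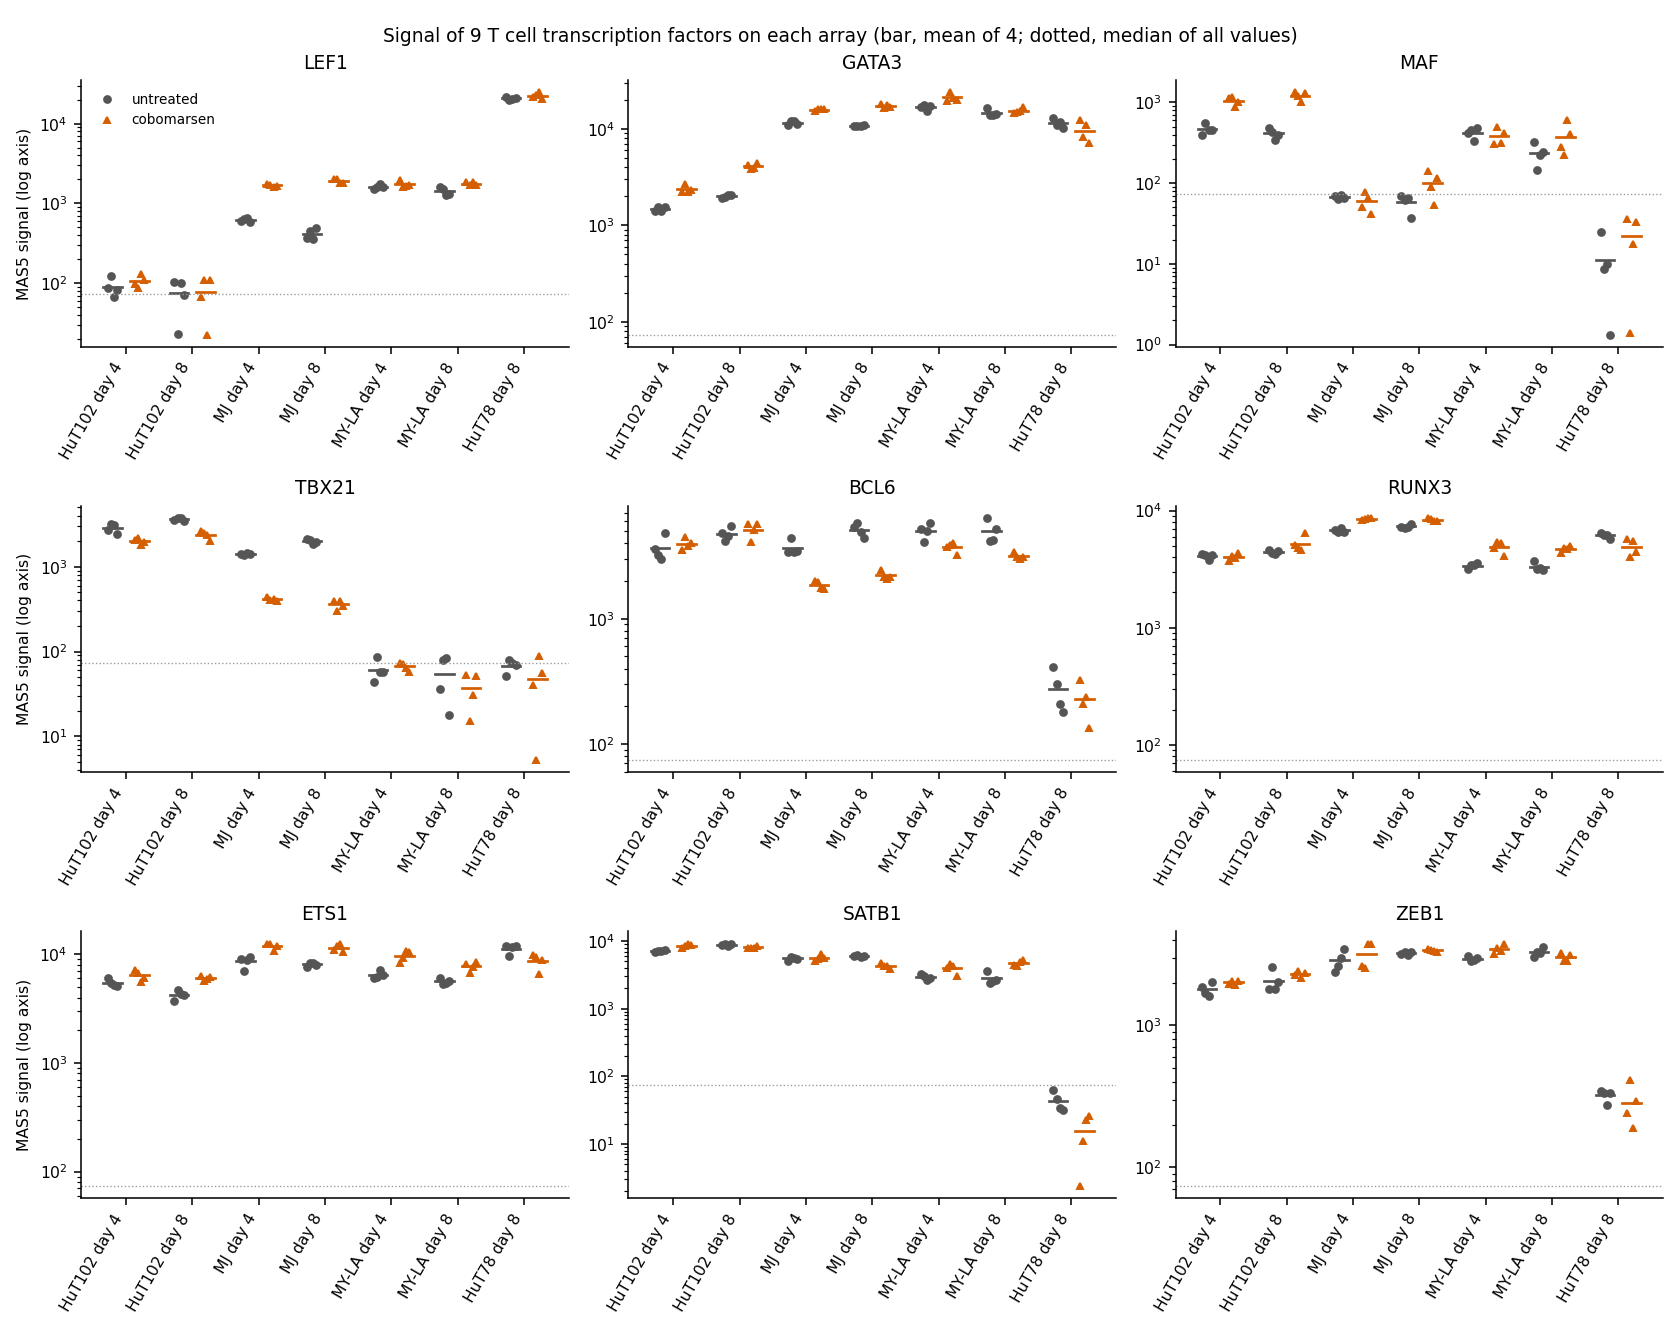
MAS5 signal (log axis) of the probe set used for each of 9 genes on every array, by line and day. Grey circles are untreated arrays, orange triangles arrays with cobomarsen, short bars the mean of 4, and the dotted line the median of all values, 74.0. LEF1 and TBX21 part widely in MJ, GATA3 in HuT102 and MJ and MAF in HuT102, while SATB1 lies under the dotted line in HuT78 alone.

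LEF1 (chr4:108047548-108168932, GRCh38.p14) differed widely in level between the lines. Untreated at day 8 its mean signal was 20731 ± 781 in HuT78, 1427 ± 142 in MY-LA, 417 ± 67.4 in MJ and 74.4 ± 37.0 in HuT102. HuT78 stood above MY-LA by 3.85 ± 0.21 and MY-LA above MJ by 1.74 ± 0.21 on the log2 scale (limma adjusted p at most 3.83e-10). MJ stood above HuT102 too (3.61e-14), where LEF1 was at the level of background, so no size is given for that gap.

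On the MJ arrays of day 4, LEF1 read 600.3, 644, 654 and 581 on the untreated arrays and 1755, 1709, 1624 and 1635 with cobomarsen. At day 8 it read 364, 456, 357 and 492 untreated and 2018, 2038, 1805 and 1782 with cobomarsen. The groups did not overlap at either day. The rise was 2.67-fold at day 4 (log2 change 1.42 ± 0.21, limma adjusted p = 4.99e-07) and 4.48-fold at day 8 (2.16 ± 0.21, 4.72e-12). A second LEF1 probe set, lower in signal, rose as well, from 69.9 to 161 at day 4 and from 49.5 to 157 at day 8.

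With cobomarsen the LEF1 level of MJ came to lie beside that of MY-LA, at 1911 ± 136 against 1772 ± 90.1 at day 8. In the fit to all lines LEF1 was not called in the other lines, and in HuT102 at day 8 it was not tested. In MY-LA its 4 arrays with cobomarsen at day 8 lay above the untreated ones (log2 change 0.31 ± 0.21, adjusted p = 0.247). The fit to the MY-LA arrays alone called that change (limma adjusted p = 0.00379). For HuT78 LEF1 read 22368 ± 1944 against 20731 ± 781. The day 8 change in MJ exceeded that in MY-LA by 1.85 ± 0.30 and that in HuT78 by 2.06 ± 0.30 (limma adjusted p at most 2.30e-06).

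GATA3 (chr10:8045333-8075198) was highest untreated at day 8 in MY-LA, at 14567 ± 1121, then in HuT78 at 11454 ± 1209 and MJ at 10763 ± 173, and lowest in HuT102, at 2000 ± 74.8. HuT78 and MJ did not differ beyond their spread (log2 difference 0.08 ± 0.09, adjusted p = 0.415). MY-LA stood above HuT78 by 0.35 ± 0.09 and MJ above HuT102 by 2.42 ± 0.09.

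On the HuT102 arrays of day 4, GATA3 read 1411, 1551, 1398 and 1549 untreated and 2241, 2655, 2228 and 2324 with cobomarsen. At day 8 it read 1908, 1971, 2052 and 2069 untreated and 4180.4, 3879.8, 3917 and 4445 with cobomarsen. The groups were far apart at both days, by 1.59-fold (log2 change 0.67 ± 0.09, limma adjusted p = 6.49e-08) and 2.04-fold (1.03 ± 0.09, 6.53e-14).

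In MJ the mean GATA3 signal went from 11534 ± 573 to 15809 ± 334 at day 4 and from 10763 ± 173 to 17293 ± 752 at day 8, which on the log2 scale is 0.46 ± 0.09 and 0.68 ± 0.09. In MY-LA at day 4 it went from 16763 ± 1018 to 21102 ± 1936 (0.33 ± 0.09, limma adjusted p = 0.00436). In all 5 of these comparisons the groups did not overlap and all 3 GATA3 probe sets rose. At day 8 in MY-LA the change was 0.09 ± 0.09 (adjusted p = 0.474) and none of the 3 probe sets was called. The day 8 change in HuT102 was larger than that in MJ by 0.35 ± 0.13 and than that in MY-LA by 0.94 ± 0.13 (limma adjusted p = 0.0345 and 2.56e-08).

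MAF (chr16:79202622-79600737) lay over the median of all values in HuT102 and MY-LA and at or near it in MJ, and under it in HuT78. On the HuT102 arrays of day 4 it read 398, 556, 457 and 454 untreated and 1130.1, 1168, 866 and 1026 with cobomarsen. At day 8 it read 482, 434, 346 and 399 untreated and 1331, 1193, 1023 and 1315 with cobomarsen. Every array with cobomarsen lay above every untreated one. The rise was 2.21-fold (log2 change 1.14 ± 0.27, limma adjusted p = 0.00107) and 2.86-fold (1.52 ± 0.27, 6.76e-06). At day 4 it was not called with 1 in place of 16 added before the logarithm (1.17, adjusted p = 0.0746).

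MAF is read by 6 probe sets, of which 2 were tested in HuT102 at day 4 and 3 at day 8. Of these, 1 beside the probe set used showed smaller changes, of 0.33 ± 0.25 and 0.57 ± 0.25, and was not called, while the other rose at day 8, from a mean signal of 39.4 ± 16.2 to 153 ± 26.6. In MY-LA at day 8 MAF read 281, 220.4, 605 and 403 with cobomarsen and 323, 147, 222 and 242 untreated. The groups overlapped (log2 change 0.61 ± 0.27, adjusted p = 0.0651), and the change was called when cobomarsen array 1 or 2 or untreated array 1 was left out (0.71 to 0.82) or when 64 was added before the logarithm (0.53). For MJ at day 8 the signals were 101 ± 38.4 with cobomarsen and 59.0 ± 14.8 without, which was called only when cobomarsen array 3 was left out.

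**Figure D2:**
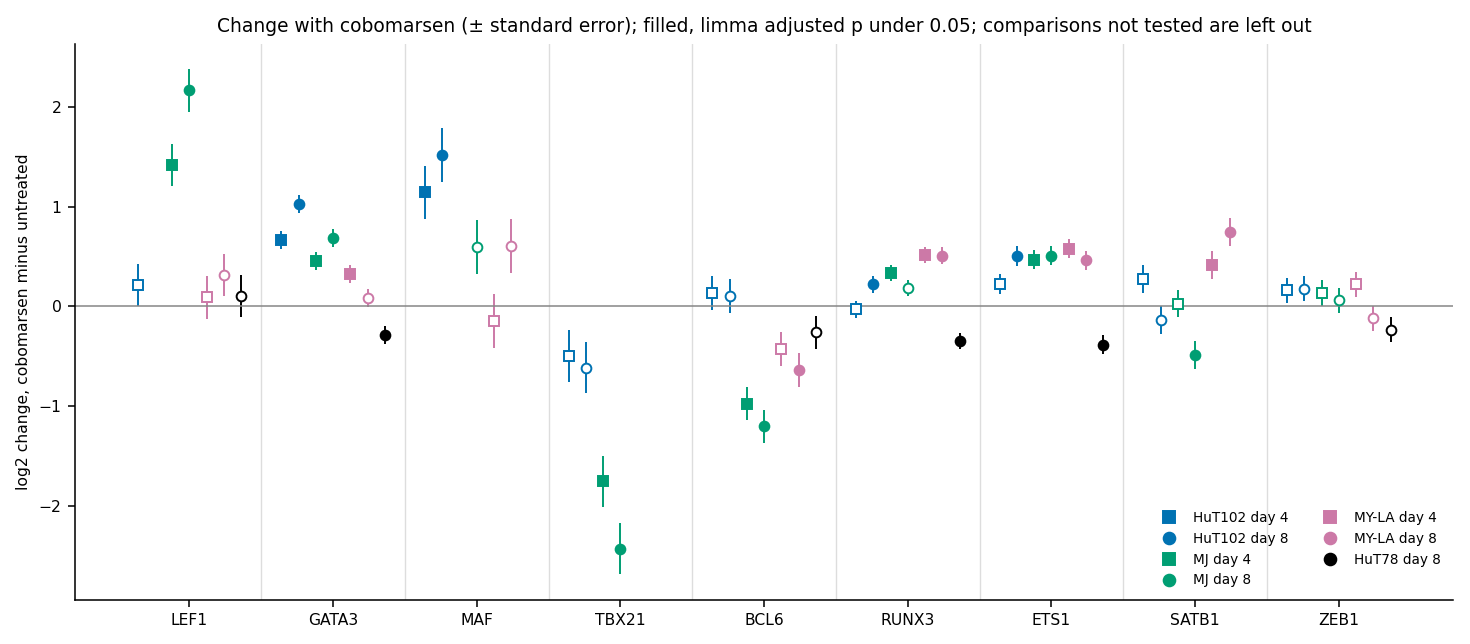
Log2 change of signal with cobomarsen against untreated for each gene, with its standard error, in 7 comparisons of line and day. Squares are day 4, circles day 8, and filled points have a limma adjusted p under 0.05. LEF1 and TBX21 in MJ reach 2.16 and -2.42, and the 3 filled points of HuT78 all lie under 0.

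TBX21 (chr17:47733236-47746122) was present in 2 of the lines only. Untreated at day 8 it stood at 3605 ± 143 in HuT102 and 1993 ± 118 in MJ (log2 difference 0.85 ± 0.26, limma adjusted p = 0.00389), and at 68.3 ± 11.9 in HuT78 and 54.3 ± 32.1 in MY-LA, under the median of all values. It has 1 probe set.

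On the MJ arrays of day 4, TBX21 read 1421, 1389, 1458 and 1423 untreated and 436, 401, 412 and 397 with cobomarsen. At day 8 it read 2096, 2085, 1852 and 1940.2 untreated and 396, 303, 394 and 345 with cobomarsen. All arrays with cobomarsen lay far under the untreated ones. The gene was 3.37-fold lower at day 4 (log2 change -1.75 ± 0.26, limma adjusted p = 3.04e-07) and 5.37-fold lower at day 8 (-2.42 ± 0.26, 4.48e-11).

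In HuT102 the TBX21 arrays also did not overlap, at 2073, 2171, 1801 and 1960.2 with cobomarsen and 2703, 3148, 3103 and 2403 untreated at day 4. At day 8 they read 2600, 2465, 2343 and 2032 against 3519, 3751, 3699 and 3452. All 4 arrays with cobomarsen lay lower at both days. The fit to all lines did not call these differences (-0.50 ± 0.26 and -0.61 ± 0.26, adjusted p = 0.168 and 0.0523), while the fit to the HuT102 arrays alone did (adjusted p = 0.000271 and 1.02e-05), as did adding 64 before the logarithm (0.0110 and 0.000706). The day 8 change was larger in MJ than in HuT102 by 1.81 ± 0.36 (limma adjusted p = 9.82e-05).

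BCL6 (chr3:187721377-187745468) stood at a like level in MJ, MY-LA and HuT102 untreated at day 8, at 5138 ± 608, 5009 ± 1030 and 4776 ± 540, and these neighbours did not differ beyond their spread (log2 differences 0.05 ± 0.17 and 0.05 ± 0.17). In HuT78 it was far lower, at 276 ± 104.

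In MJ BCL6 read 3406, 4431, 3418 and 3499 untreated and 2013, 1954, 1753 and 1737 with cobomarsen at day 4. At day 8 it read 5371, 5834, 4938 and 4409 untreated and 2469, 2159, 2087 and 2153 with cobomarsen. No array with cobomarsen reached the lowest untreated one. BCL6 fell by 0.97 ± 0.17 and by 1.20 ± 0.17 on the log2 scale (limma adjusted p = 7.95e-06 and 6.68e-08), and all 3 of its probe sets fell at both days.

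In MY-LA at day 8 BCL6 read 3441, 3137, 3005 and 3115 with cobomarsen against 6394, 4216, 4232 and 5194 untreated. Again the groups did not overlap (log2 change -0.64 ± 0.17, limma adjusted p = 0.00181). Of the other 2 BCL6 probe sets 1 fell there, by 1.42 ± 0.20, and 1 was not called (-0.11 ± 0.18, adjusted p = 0.650). At day 4 they did not overlap either, at 3745 ± 352 and 5058 ± 692, but the change of -0.43 ± 0.17 was not called (adjusted p = 0.0547). It was called without untreated array 2 (-0.52, adjusted p = 0.0324), and both other BCL6 probe sets were called lower at that day. In HuT102 the changes were 0.13 ± 0.17 and 0.11 ± 0.17. The day 8 change in HuT102 differed from that in MJ by 1.31 ± 0.24 and from that in MY-LA by 0.74 ± 0.24 (limma adjusted p = 2.12e-05 and 0.0106).

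RUNX3 (chr1:24899511-24965138) was well over background in all lines and changed by small steps. Untreated at day 8 it was highest in MJ, at 7346 ± 276, then 6166 ± 286 in HuT78, 4452 ± 164 in HuT102 and 3289 ± 270 in MY-LA, and each of these neighbours differed (limma adjusted p at most 0.00536). In MY-LA it read 3173, 3439, 3406 and 3568 untreated and 4757, 5391, 5296 and 4108 with cobomarsen at day 4, with no overlap. Its changes in MY-LA were 0.52 ± 0.08 and 0.51 ± 0.08 (limma adjusted p = 1.71e-06 and 9.11e-07), and in MJ at day 4 0.33 ± 0.08 (0.00122).

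The RUNX3 arrays of MJ at day 8 did not overlap either, at 8368 ± 200 against 7346 ± 276, with a change of 0.19 ± 0.08 that was not called (adjusted p = 0.0687). It was called in the fit to the MJ arrays alone and after quantile normalization (limma adjusted p = 0.000950 and 0.0366). A second probe set was called there too (0.26, limma adjusted p = 0.0397). For HuT102 at day 8 it was called higher, by 0.22 ± 0.08 (limma adjusted p = 0.0254), with arrays that overlapped. That call was lost without untreated array 2 or 3 or without cobomarsen array 4, the highest (0.12, adjusted p = 0.270). Of the 3 RUNX3 probe sets 2 were tested, and both rose in MY-LA at both days, in MJ at day 4 and in HuT102 at day 8. With the mean over all 3, untested ones included, none of the RUNX3 calls in any line remained (adjusted p from 0.116 to 0.891).

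ETS1 (chr11:128458765-128587558) rose by 0.46 to 0.58 on the log2 scale in 5 of the 6 comparisons of HuT102, MJ and MY-LA. On the HuT102 arrays of day 8 it read 3742, 4715, 4315 and 4226 untreated and 6350.2, 5644, 5951 and 6155 with cobomarsen, with no overlap. Its log2 change there was 0.51 ± 0.10 (limma adjusted p = 2.67e-05). In MJ it was 0.47 ± 0.10 and 0.51 ± 0.10, and in MY-LA 0.58 ± 0.10 and 0.46 ± 0.10, without overlap in any of these. The HuT102 groups of day 4 overlapped (0.22 ± 0.10, adjusted p = 0.0909), and the change was called when cobomarsen array 3 was left out (0.29, adjusted p = 0.0378).

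The other 2 ETS1 probe sets did not always follow. Neither was called in MJ at day 4 (adjusted p = 0.169 and 0.227), and at day 8 only 1 of them was called in MJ and in HuT102. In MY-LA at day 4 they changed by 0.11 ± 0.16 and -0.14 ± 0.21 and were not called, whereas at day 8 both rose, by 1.36 ± 0.16 and 1.03 ± 0.21. With the mean of the 3 probe sets the day 4 change there was 0.18 and was not called (adjusted p = 0.277). On the probe set used, ETS1 differed between the lines at day 8 in its response over all 4 lines, but not over HuT102, MJ and MY-LA alone (limma F-test, adjusted p = 7.78e-08 and 0.945). This F-test was not run on the other 2 probe sets singly. The one that rose by 1.03 in MY-LA changed by 0.22 in HuT102 and 0.42 in MJ at day 8, neither called.

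SATB1 (chr3:18345377-18445592) was at background in HuT78, at 43.6 ± 13.6 untreated, and stood at 8867 ± 322 in HuT102, 6027 ± 154 in MJ and 2816 ± 540 in MY-LA. Each neighbour in this order differed from the next (limma adjusted p at most 0.000541). On the probe set used, SATB1 rose in MY-LA, where it read 3276, 3060.4, 2674 and 2892 untreated and 4066, 4527, 4356 and 3050.3 with cobomarsen at day 4. At day 8 it read 3599, 2376, 2585 and 2703 untreated and 4362, 4345, 4841 and 5189 with cobomarsen. The arrays overlapped at day 4 (log2 change 0.41 ± 0.14, limma adjusted p = 0.0216) and not at day 8 (0.75 ± 0.14, 1.56e-05). The day 4 call was lost without untreated array 3, cobomarsen array 2 or cobomarsen array 3 (0.35 to 0.37, adjusted p from 0.0694 to 0.0854).

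The same SATB1 probe set fell in MJ at day 8, from 6027 ± 154 to 4312 ± 376 (log2 change -0.49 ± 0.14, limma adjusted p = 0.00463). This call and that in MY-LA at day 4 were lost with 1 in place of 16 added before the logarithm (adjusted p = 0.164 and 0.273). The MJ call was also lost with the mean of probe sets (-0.12, adjusted p = 0.553). The day 8 changes in MJ and MY-LA differed by 1.23 ± 0.20 (limma adjusted p = 1.51e-06). For HuT102 at day 4 the groups did not overlap, at 8586 ± 468 with cobomarsen and 7089 ± 211 untreated. That change was not called (0.27 ± 0.14, adjusted p = 0.156), but was with 64 added (0.0329). The fit to the HuT102 arrays alone called SATB1 higher at day 4 and lower at day 8 (limma adjusted p = 0.000766 and 0.0490).

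A second SATB1 probe set gave another picture. It rose in all 6 comparisons of HuT102, MJ and MY-LA, by 0.93 and 0.54 in HuT102, 1.17 and 0.73 in MJ and 1.38 and 1.27 in MY-LA (limma adjusted p at most 0.0289). For MJ at day 8 its mean signal went from 269 ± 37.7 to 459 ± 74.6, against the direction of the probe set used, whose signal was higher. It also rose in HuT102 at day 8, from 472 ± 57.5 to 691 ± 58.8, while the probe set used changed by -0.14 ± 0.14 (adjusted p = 0.476). The remaining SATB1 probe set was called nowhere. Which part of the transcript each probe set reads is not given in the annotation used.

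**Figure D3:**
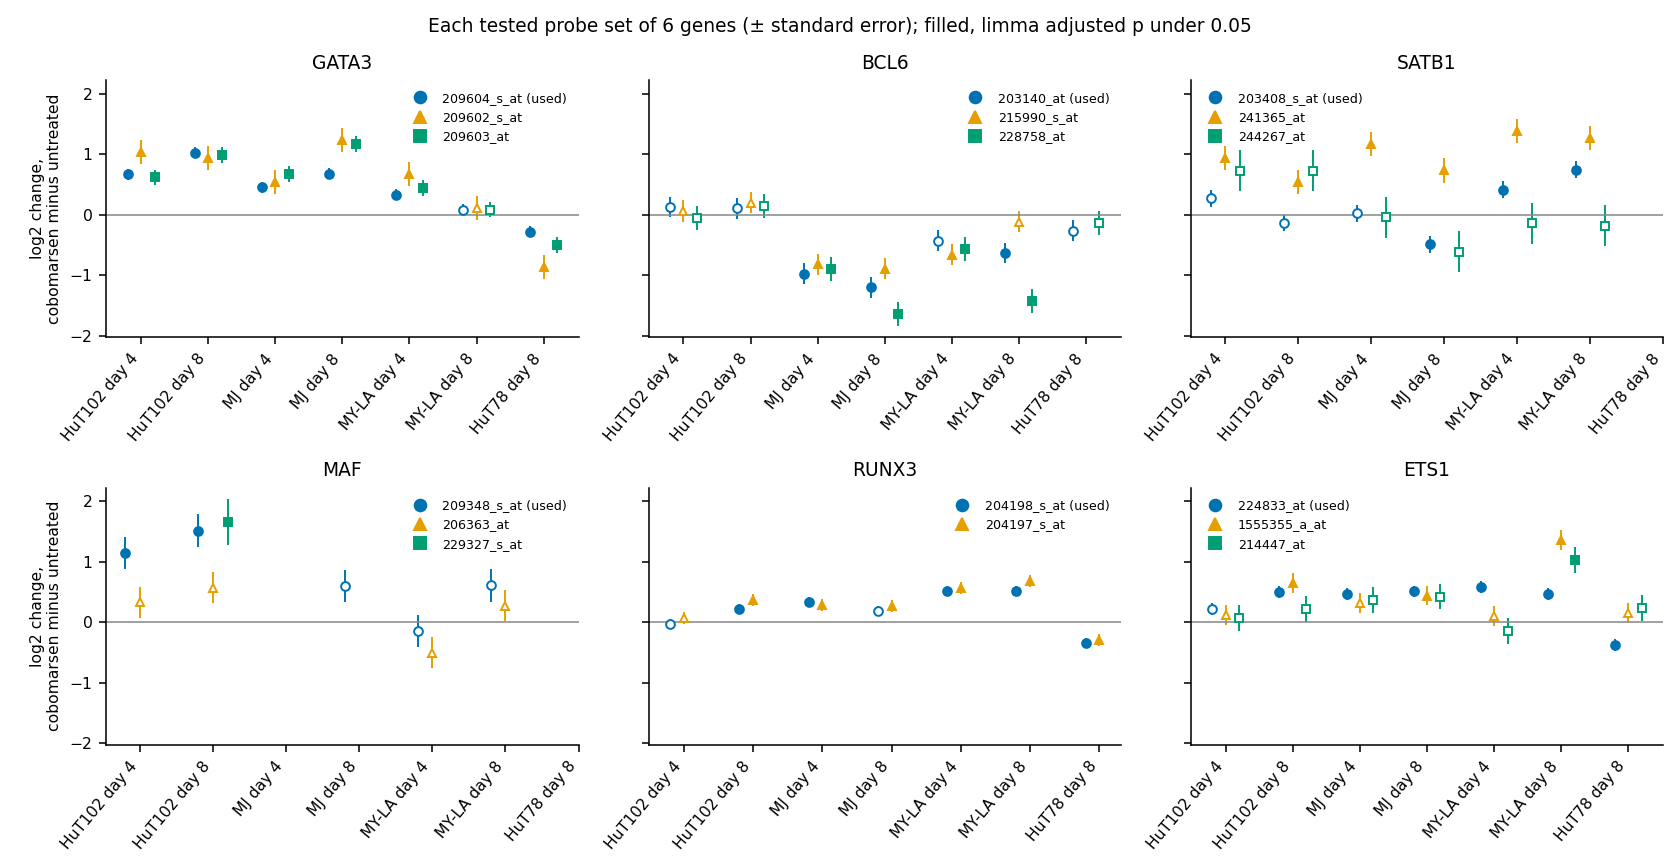
Log2 change with cobomarsen (± standard error) of each tested probe set of 6 genes in 7 comparisons, filled where the limma adjusted p was under 0.05. The 3 GATA3 probe sets move together. A second SATB1 probe set (triangles) lies above the one used (circles) in each of the 6 comparisons shown. At day 8 the signs of these SATB1 probe sets are opposite in HuT102 and in MJ.

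ZEB1 (chr10:31318417-31529804) was called in none of the 7 comparisons, with log2 changes from -0.23 to 0.22 and a standard error of 0.13. Untreated at day 8 it stood at 3281 ± 215 in MY-LA and 3234 ± 76.2 in MJ, which did not differ beyond their spread (log2 difference 0.02 ± 0.13), at 2053 ± 359 in HuT102 and at 323 ± 32.4 in HuT78. Both in MJ at day 8 and in MY-LA at day 4 the arrays with cobomarsen lay just above the untreated ones, with changes of 0.06 ± 0.13 and 0.22 ± 0.13. None of the 4 ZEB1 probe sets was called in any of the 7 comparisons, though a fit to the MY-LA arrays alone called the day 4 change (adjusted p = 0.0210). Of 9 genes repressed by ZEB1 with a probe set, most were too low to test. Only 0 to 3 were tested in each comparison of HuT102, MJ and MY-LA, and 7 in HuT78. The 1 called was the E-cadherin gene CDH1, 1 of 3 tested in MY-LA at day 8, from 779 to 2204.

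In HuT78 the 3 calls were all lower, those of GATA3 and ETS1 with groups that overlapped. GATA3 there read 12253, 8230.1, 10858 and 7062 with cobomarsen against 12905, 10956, 11865 and 10089 untreated, so the groups overlapped (log2 change -0.28 ± 0.09, limma adjusted p = 0.0197). RUNX3 read 5688, 4020.3, 5489 and 4427 against 6459, 6248, 6181 and 5776, the only tested member there whose groups did not overlap (-0.34 ± 0.08, 0.00238). SATB1, at background and not tested, did not overlap either, at 15.4 ± 10.7 with cobomarsen against 43.6 ± 13.6 untreated. ETS1 read 9920.1, 9381, 6532 and 8880.4 against 11868, 9583, 11583 and 11888 (-0.38 ± 0.10, 0.00400).

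All 3 GATA3 probe sets and both RUNX3 probe sets tested were called lower in HuT78, while the other 2 ETS1 probe sets changed by 0.16 ± 0.16 and 0.24 ± 0.21. After quantile normalization, which gives every array the same upper quartile, the 3 calls stayed, with changes of -0.43, -0.44 and -0.52 for GATA3, RUNX3 and ETS1 (limma adjusted p = 0.00417, 0.000778 and 0.000635). A fit to the 8 HuT78 arrays called none of the members. In each of these 3 genes cobomarsen array 1, whose upper quartile was like that of the untreated arrays, was the highest of its group. Set alone against the 4 untreated arrays it gave changes of 0.10, -0.11 and -0.17, values of 1 array on which no test can rest. The RUNX3 call stayed with each array left out in turn, whereas the GATA3 call was lost without untreated array 1 or 3 or cobomarsen array 2 or 4 (-0.15 to -0.26), and the ETS1 call without cobomarsen array 3 (-0.25, adjusted p = 0.0561). BCL6 (-0.26 ± 0.17) and ZEB1 (-0.23 ± 0.13) were called in HuT78 only when 1 cobomarsen array was left out, array 1 for BCL6 and array 2 for ZEB1 (-0.44 and -0.42).

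The question of direct and downstream targets calls for a comparison of the days. On the probe sets used, no member's response changed between day 4 and day 8 in HuT102, MJ or MY-LA at an adjusted p under 0.05, where 7.20%, 1.35% and 17.0% of all tested genes did. The other 2 ETS1 probe sets did change in MY-LA, by 1.25 ± 0.23 and 1.17 ± 0.30 (limma adjusted p = 0.000108 and 0.00532), as did their mean with the probe set used (0.77, 0.000820), against -0.12 ± 0.14 on the latter alone. The largest differences on the probe sets used, among genes tested, were 0.75 ± 0.30 for LEF1 and -0.67 ± 0.36 for TBX21 in MJ (adjusted p = 0.343 and 0.625), and 0.76 ± 0.38 for MAF in MY-LA (0.169). GATA3 in HuT102 differed by 0.36 ± 0.13 (adjusted p = 0.0752), and was called without cobomarsen array 2 of day 4 (0.42, 0.0395). These standard errors leave room for differences of the size seen, but they draw on the arrays of all lines, also where a gene was near background. On the log2 scale the SD of LEF1 was 0.75 and 0.80 in HuT102 at day 8, against 0.05 to 0.22 in the MJ groups. Fits to the arrays of 1 line called GATA3 and SATB1 in HuT102, LEF1, SATB1 and TBX21 in MJ and ZEB1 in MY-LA. In MJ the limma adjusted p was then 0.00190 for LEF1 and 0.00173 for TBX21.

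Without treatment, few members were called as changed between the days in the fit to all lines. In HuT102 GATA3 was higher at day 8 by 0.43 ± 0.09 and ETS1 lower by 0.36 ± 0.10 on the log2 scale (limma adjusted p = 0.000745 and 0.0113), where 8.70% of all genes were called. The ETS1 call was lost without array 1 of either day (-0.31 and -0.30), and BCL6 was called without day 4 array 4 (0.54). In MY-LA MAF was lower at day 8, by 0.85 ± 0.27 (limma adjusted p = 0.0283, 13.1% of all genes called). That call was lost when any 1 of 6 of the 8 arrays was left out, day 4 array 1, 2 or 4 and day 8 array 2, 3 or 4 (-0.88 to -0.66). In MJ no member was called, where 1.61% of all genes were. LEF1 changed there by -0.56 ± 0.21, TBX21 by 0.48 ± 0.26 and BCL6 by 0.48 ± 0.17. The fit to the MJ arrays alone called these 3 (limma adjusted p = 0.00143, 0.00216 and 0.00510).

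Between the 4 lines all 9 members differed untreated at day 8, as did 91.0% of all genes (limma F-test). The labels carry running numbers in 2 ranges, 1 for HuT102 and MJ and another for MY-LA and HuT78, so a difference across these pairs cannot be told apart from what the ranges stand for. For pairs of lines the share of all genes that differed was 57.5% for HuT102 and MJ, 68.9% for HuT102 and MY-LA, 73.7% for HuT102 and HuT78, 65.3% for MJ and MY-LA, 69.1% for MJ and HuT78 and 74.8% for MY-LA and HuT78. BCL6 differed only where HuT78 was compared. Over the other 3 lines its F-test gave an adjusted p of 0.845, and the other 8 members remained called.

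The response at day 8 differed between the 4 lines for 8 of the 9 members, all but ZEB1 (adjusted p = 0.149), and for 64.7% of all genes. Without HuT78 it differed for 6 on the probe sets used, with MAF (adjusted p = 0.0553) and ETS1 lost. For pairs of lines the share of all genes whose response differed was 28.0% for HuT102 and MJ, 38.8% for HuT102 and MY-LA, 37.1% for HuT102 and HuT78, 33.6% for MJ and MY-LA, 35.6% for MJ and HuT78 and 38.8% for MY-LA and HuT78.

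Genes that these factors control or that mark the matching T cell states were counted from lists, to be read against the 23.0%, 40.1%, 27.2%, 33.6%, 26.3%, 41.7% and 22.0% of all genes called in the same comparisons. Of the T-bet and Th1 genes, 5 of 8 fell and none rose in MJ at day 4 and 5 of 7 fell and 1 rose at day 8, with median log2 changes of -0.67 and -0.73. Interferon gamma (IFNG), the signature cytokine of Th1 cells, went from 3496 to 163 at day 8, and the chemokine CCL4 from 2079 to 595 at day 4. In HuT102, 3 of 9 fell at each day, and 1 and 2 rose, among the latter the chemokine CCL5 (from 15250 to 31920 at day 8) and lymphotoxin alpha, LTA. In MY-LA 2 and 3 of 4 fell, and in HuT78 1 of 7.

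The list of Th2 genes had more rises in HuT102 and more falls in MJ, while GATA3 itself rose in both. There, at day 8, 3 of 5 rose in HuT102 and none fell, among them IL13 (378 to 940.4) and the chemokine receptor CCR4 (722 to 1168). In MJ 4 of 8 fell and 1 rose at day 4, and 5 of 9 fell and 1 rose at day 8. IL5 fell from 4136 to 1376 in MJ at day 4 and IL4 from 261 to 34.8, while the receptor gene PTGDR2, a Th2 marker, rose from 116 to 207. In HuT102 at day 4 1 of 5 rose, in MY-LA 2 of 5 fell at day 4 and 1 rose and 1 fell of 6 at day 8, and in HuT78 none of 7 was called.

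Of the naive and memory genes linked to TCF7 and LEF1, 3 of 8 rose and 1 fell in MJ at day 8, with the membrane protein MAL going from 556 to 3724 and the egress receptor S1PR1 from 1259 to 2932. At day 4 in MJ 2 rose and 2 fell of 7, with CD55 going from 2116 to 1134. In HuT102 2 of 8 rose at day 4, and 5 rose and 2 fell of 9 at day 8. In MY-LA 4 of 6 rose at day 4, and 4 rose and 1 fell of 7 at day 8. IL7R, the interleukin 7 receptor, rose in HuT102 at day 8 (172 to 327) and fell in MY-LA (1050 to 587).

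Of the follicular helper genes, 2 of 5 rose in HuT102 at each day, the costimulator ICOS from 84.6 to 718 and the chemokine CXCL13 from 1579 to 10210 at day 8. Among these genes 3 of 4 fell and 1 rose in MJ at day 8, and CXCL13 (2052 to 1284) and TIGIT (6024 to 3474) were among those that fell. In MY-LA 1 and 2 of 3 fell, ICOS from 10160 to 6321 at day 8, and 1 of 4 rose in MJ at day 4 and 1 of 3 in HuT78. BCL6 itself fell in MJ and MY-LA and was not called in HuT102.

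Of the cytotoxic and CD8 genes linked to RUNX3, 4 of 7 rose and 2 fell in HuT102 at day 8. CRTAM, a receptor of activated cytotoxic cells, went from 565 to 3283 and CST7, an inhibitor of cathepsins, from 51.4 to 175, while granzyme B (GZMB) went from 1379 to 231 and NKG7 from 4279 to 1794. CRTAM went the other way in MJ at day 8, from 609 to 65.8, and the protease gene CTSW rose from 729 to 1923. The list held 2 or 3 falls and 1 rise of 5 to 7 in the other comparisons of HuT102 and MJ, and 1 rise at most and no fall in MY-LA and HuT78.

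Among 32 further T cell factors with a probe set, 6 rose and 1 fell of 28 in HuT102 at day 4 and 11 rose and 2 fell of 28 at day 8, near the shares of all genes called there. In MJ 7 rose and 7 fell of 28, then 6 rose and 8 fell of 30, in MY-LA 8 and 2 of 24, then 11 and 8 of 23, and in HuT78 none rose and 9 fell of 30. TOX2, a relative of the exhaustion factor TOX, went from 113 to 720 in HuT102 at day 8, RORA from 493 to 1614 in HuT102 at day 4, and EOMES, the paralogue of T-bet, from 29.4 to 174 in MY-LA at day 8. BACH2, a repressor of effector genes, went from 855 to 301 and HOPX from 584 to 124 in MJ at day 8, and NR4A3 from 1423 to 503 in MY-LA at day 8.

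Of 12 partners and corepressors with a probe set, CBFB, the subunit with which RUNX proteins bind DNA, rose from 4253 to 10770 in MJ at day 4. The Groucho corepressors, which bind TCF and LEF proteins, did not move as 1, with TLE2 (227 to 693 in MY-LA) and TLE4 (580 to 1383 in HuT102) higher and TLE3 (409 to 148 in MJ) lower, all at day 8. Beta-catenin (CTNNB1) fell from 8199 to 6191 in HuT102 at day 8. Over the 7 comparisons 0 to 5 of 10 to 12 tested rose and 0 to 2 fell.

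**Figure D4:**
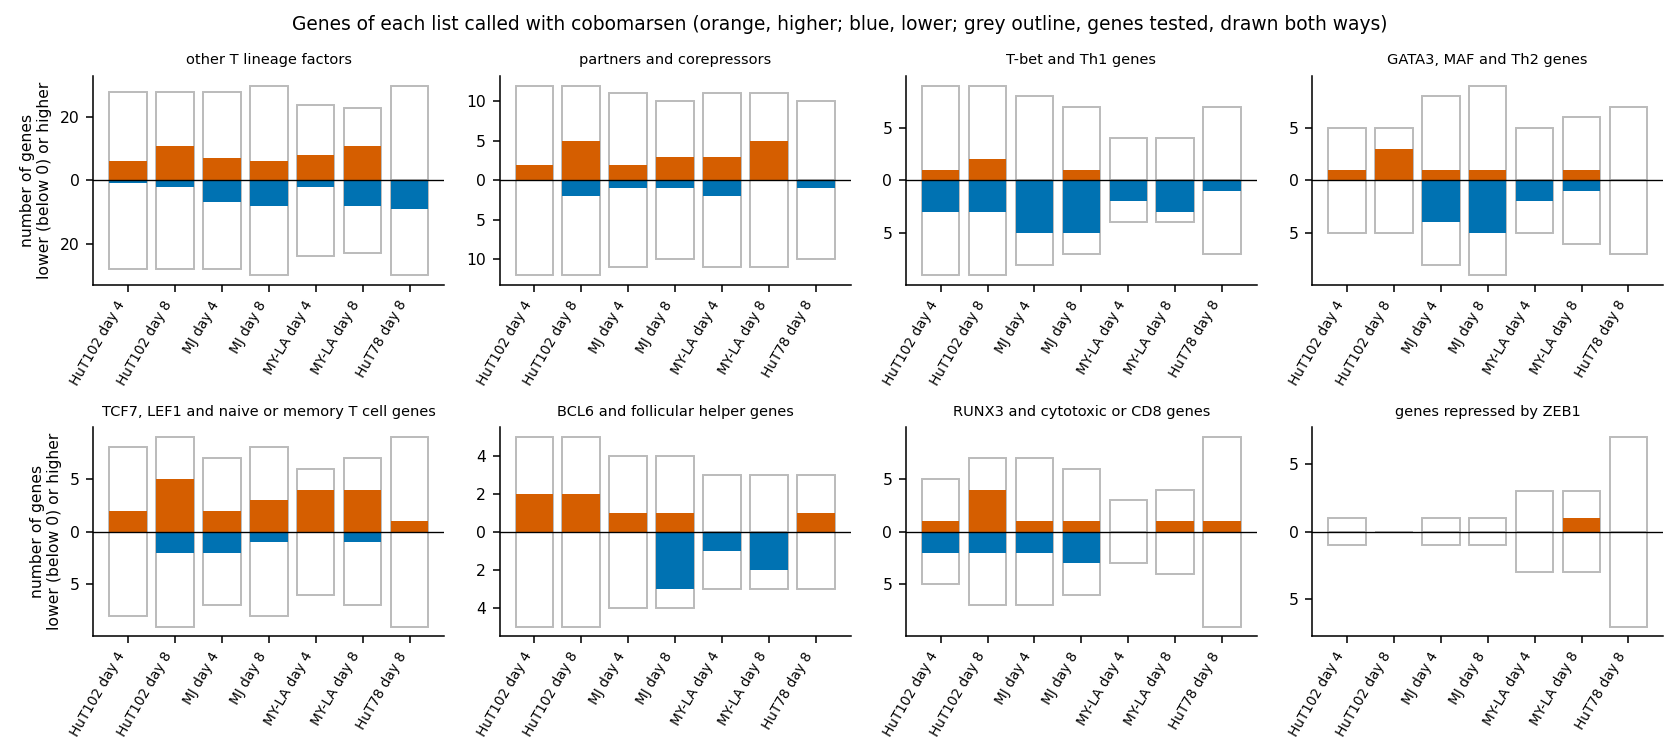
Number of genes of 8 lists called higher (orange, above 0) or lower (blue, below 0) with cobomarsen in 7 comparisons, with the number tested as a grey outline drawn both ways. The Th1 list lies mostly below 0 in MJ (5 of 8 and 5 of 7 lower), and the further T cell factors lie wholly below 0 in HuT78 (9 of 30).

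For each member, the 2 genes whose means over the 14 groups followed it most closely were sought among 11709 genes, as a description over points that share lines and arrays. BCL6 was followed by STAT5A and CTTN (Pearson r 0.987 and 0.986), TBX21 by CAV2 and LRIG3 (0.990 and 0.981), LEF1 by CSTF2T and MCM3AP-AS1 (0.985 and 0.976) and GATA3 by PGLYRP4 and WWOX (0.982 and 0.981). MAF was followed by CD109 and SLC2A13 (0.980 and 0.972), SATB1 by PRR34-AS1 and FBXL15 (0.990 and 0.990) and ZEB1 by COL9A2 and SAT2 (0.991 and 0.990). RUNX3 and ETS1 had looser companions, SNN and GALNT7 (0.947 and 0.946) and ZNF362 and ARID1B (0.958 and 0.939).

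The start sites of the members were searched for short motifs that members of these families bind, as a description of their sequence. RefSeq windows of GRCh38.p14 run from 250 bases before to 50 bases after a start site, and only the 250 bases before it were searched. Windows were found for 9 of the 10 members, all but ETS1, with 26 windows. The RUNX motif TGTGGT was in 7 of these, against 11.0% of all 35116 windows, on either strand. These windows belong to 6 members, of which some rose, some fell and some were not called in MJ at day 4. The match in LEF1 and GATA3 is shown as an example. Capitals mark the motif.
LEF1 (chr4:108166343-108166368, minus strand): aaagaaagtgTGTGGTtttgagggcg
GATA3 (chr10:8051188-8051213, plus strand): tgggggtgtgTGTGGTagcttaaccc
The other motifs were CTTTGA for TCF and LEF (2 of 26 windows, 11.2% of all), AGATAA for GATA (0 of 26, 9.17%), AGGTGTG for T-box factors (4 of 26, 3.84%), CCGGAAG for ETS (2 of 26, 8.52%) and CACCTG for ZEB (7 of 26, 17.5%). Matches of RUNX, T-box and ZEB motifs overlap in SATB1 and ZEB1. A match says only that these letters are in the window.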

How the data were processed

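Messenger RNA of 4 lines was read on 56 arrays in 14 groups of 4, which the labels set by treatment, time and line. The authors deposited the probe set intensity from MAS5, per the submitters' processing notes, on a linear scale. Every array had a trimmed mean (2% cut at each end) of 500.1, so a change in total messenger RNA would not be seen. Precision is limited by how many arrays there are.

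The table held 54675 probe sets, 62 of them controls, 1801 with several symbols and 11721 with none. Each gene was read by the probe set with the highest mean log2(signal + 16) over all arrays, and every other probe set of a member was compared with it. In R 4.3.3, limma 3.58.1 fitted all 14 means together (56 arrays, 42 residual degrees of freedom) with an intensity trend in the variances, so a standard error also draws on arrays outside a comparison. Two-sided p-values were adjusted by Benjamini-Hochberg over the genes tested, at 0.05. Genes whose mean log2(signal + 16) over the arrays compared lay under 6.49, the value for a signal of 74.0, were not tested. The limma step was tested on simulated arrays, for changes in MJ at day 8 only. Each gene had the same spread in all groups there, so unequal spreads were not covered.

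The members and lists were chosen with earlier results of these data known. The text names all members, up to 3 called genes of each list by size of rise and 3 by size of fall, and for each member the 2 most alike genes. No fold is printed where a group mean lay under 74.0. Alternatives were 1 or 64 in place of 16, no filter or one at the 75th percentile, quantile normalization, the mean of a gene's probe sets, every probe set, the arrays of 1 line, no trend and leaving out each array. Taking HuT78 cobomarsen array 1 alone and leaving HuT78 out of the F-tests were chosen after seeing the data. Tables and figures were made in Python 3.11.15 (pandas 2.3.3, Matplotlib 3.10.9).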

Additional observations from a re-analysis of the deposited data

Results flagged for a closer look

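The response to cobomarsen at day 8 differed between the 4 lines for 8 members by the limma F-test, with adjusted p = 1.93e-12 for GATA3, 1.65e-09 for SATB1, 1.84e-08 for LEF1, 7.78e-08 for ETS1, 1.54e-07 for RUNX3, 4.49e-06 for TBX21, 4.31e-05 for BCL6 and 0.0420 for MAF. The values of SATB1, TBX21 and MAF include lines in which the gene lay under the median of all values.

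Of the 126 sets of 4 arrays examined (9 members in 14 groups), 6 held an array far from the other 3, where chance gives about 1 in 20. The gap to the nearest array, over the whole range, was 0.909 for BCL6 in MJ untreated at day 4, where 1 array read 4431 against 3406 to 3499. It was 0.868 for ETS1 (9583 against 11583 to 11888) and 0.846 for ZEB1 (275 against 336 to 347) in HuT78 untreated, on different arrays. It was 0.864 for GATA3 in MY-LA untreated at day 8 (16236 against 13829 to 14156), 0.860 for RUNX3 in HuT102 untreated at day 4 (3799 against 4166 to 4225) and 0.855 for SATB1 in HuT102 with cobomarsen at day 8 (8463 against 7883 to 7967).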

How the results depend on the processing

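Of 56 pairs of member and treatment comparison tested, 29 were called, and 18 of these kept their call under each planned setting that tested the gene, other probe sets apart, and with each array left out. With arrays left out 1 at a time, the members called in HuT102 numbered 2 to 3 at day 4 and 3 to 4 at day 8, in MJ 6 to 6 and 6 to 7, in MY-LA 3 to 5 and 4 to 5 and in HuT78 2 to 4. Change between days was called for 0 to 1 member in HuT102 and 0 to 0 in MJ and MY-LA, untreated change for 1 to 3 in HuT102, 0 to 0 in MJ and 0 to 1 in MY-LA, lines for 9 to 9 and their responses for 7 to 8.

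In HuT102 at day 4, 1 member was called with 1 added before the logarithm, 4 with 64 and 4 in the fit to the line alone, against 2. In HuT78 1 was called with the mean of probe sets and 0 in the fit to the line, against 3. With cobomarsen array 1 alone 0 were called, but an arm of 1 array, picked after seeing the data and assumed to vary like the other groups, says nothing about the calls. The fit to the line called 2, 3 and 1 changes between days in HuT102, MJ and MY-LA, 64 called 1 in MJ and the mean of probe sets 1 in MY-LA, against 0. Untreated, the fit to the line called 4 in HuT102 and 3 in MJ, 64 called 1 in MJ and the mean of probe sets 1 in HuT102 and 1 in MJ, against 2 and 0. In MY-LA 0 were called with 1 added and with quantile normalization, against 1, which was MAF. Also 0 were called with the 75th percentile and with the mean of probe sets, but MAF was not tested there. The cause was not tested. A fit to a line uses fewer arrays, and it takes the spread of a gene from that line alone. On the log2 scale the SD of TBX21 was 0.06 to 0.18 in the HuT102 groups. It was 0.14 to 0.99 in the groups of MY-LA and HuT78, where the gene was near background. For GATA3 the SD was 0.15 and 0.36 in the HuT78 groups, against 0.02 to 0.13 in the groups of the other lines.

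Directions turned for SATB1 in HuT102 at day 8 with the mean of probe sets (0.38) and with its second probe set (0.54), for SATB1 in MJ at day 8 with that probe set (0.73), for GATA3 in HuT78 with cobomarsen array 1 alone (0.10), and for ETS1 in HuT78 with the mean of probe sets (0.0028). In 8 other cases a change called under neither setting had another sign. No paired analysis was made, because the labels do not say which arrays belong together and no running number is shared between groups. In MY-LA these numbers run through the cobomarsen arrays of a day before its untreated ones, while they alternate in the other lines. What this order stands for is not stated.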
